A study of Nicotiana tabacum with 9 samples.

Results

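NB-ARC genes encode intracellular immune receptors of plants. Of the 69500 tobacco genes in the deposited table, 534 have NB-ARC in their protein domain description, and 26 of these reached a mean signal of at least 1 over the 9 leaf libraries. These 26 genes are described here. They were chosen by that description and by their mean signal, so the mean itself is no finding. The libraries came from leaf tissue of Nicotiana tabacum, 3 each from the materials that the labels call K326, Y and KY. K326 is a flue-cured cultivar. What Y and KY stand for is not given in the sources used here, nor how old the plants were or whether they were treated. Replicates carry a number and are not said to come from separate plants, so p-values cover only library-to-library spread, possibly technical.

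NB-ARC is a nucleotide-binding module that switches between an ADP-bound resting state and an ATP-bound active state. In plant resistance proteins it sits between an N-terminal signalling domain, of the TIR or the coiled-coil type, and leucine-rich repeats that take part in recognising pathogen molecules. Activated receptors trigger ion fluxes, transcription of defence genes and often local cell death. The N gene of tobacco, a TIR type of receptor, gives resistance to tobacco mosaic virus. In bulk leaf RNA, fewer cells that express a gene and less RNA of it per cell cannot be told apart.

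The signal of all genes added up to between 551496 and 603165 per library, and 30510 to 33397 genes were above 0. The unit of the signal is not named and read depth is unknown, so no counting interval can be given and levels are compared between libraries, not between genes. Across tested genes, log2(signal + 1) correlated between libraries of 1 material at 0.899 to 0.964 and between materials at 0.897 to 0.954. KY replicate 1 stood apart: K326 replicate 3 was its closest library (0.954), and leaving out both is among the alternatives tried. KY replicate 2 was distant as well, at 0.899 with KY replicate 1 and 0.897 with K326 replicate 3. The leaf label was checked with 93 chlorophyll a/b-binding genes and 14 rubisco small subunit genes. The summed signal of the first was 31693 to 43305 in K326, 38595 to 45393 in Y and 37527 to 55070 in KY. The rubisco genes summed to 64634 to 78371 in K326, 53817 to 65961 in Y and 73446 to 77456 in KY, so that Y lay below KY. The 176 photosystem genes summed to 52808 to 63082 in K326, below 66051 to 80178 in Y and 65242 to 77399 in KY. Of the lists for dividing cells, 92 core histone genes summed to 2153 to 4059 in K326, 1128 to 1748 in Y and 1042 to 2954 in KY, while 275 cyclin or kinesin genes overlapped in all materials (338 to 437, 306 to 382 and 309 to 405 in the same order). The 103 xylem-type genes (cellulose synthase or laccase) summed to 215 to 224 in K326, 136 to 183 in Y and 165 to 255 in KY, and the 58 pollen Ole e 1 genes to 669 to 905, 494 to 552 and 307 to 952. The 52 phloem protein 2 genes summed to 163 to 241, 192 to 366 and 117 to 175, and the 251 genes for wax or lipid transfer to 3474 to 4224, 3484 to 3646 and 2901 to 3665. The part of these lists in the results below was not tested.

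Most NB-ARC genes gave little or no signal in leaf. Of the 534, 124 were listed at 0 in all 9 libraries, 384 were above 0 with a mean below 1, and 26, or 4.87%, had a mean of at least 1. Over all genes in the table this share was 23.5%. The members ranged in mean from 1.01 to 4.63 with a median of 1.39, where the median over all 16348 genes tested was 4.83. With the unit unnamed, these shares and means only place the genes against the filter. They are no finding on levels between genes. Of the 26, 22 were below a mean of 2, so they lie near the level at which genes were left out. The last gene inside the limit was Nitab4.5_0002658g0040, with a mean of 1.01, after Nitab4.5_0009286g0010 (1.04) and Nitab4.5_0001030g0010 (1.10). Just outside were Nitab4.5_0004324g0010 (0.977), Nitab4.5_0002067g0040 (0.974) and Nitab4.5_0007473g0030 (0.973).

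The descriptions divide the receptors by domain. A TIR domain was described in 5 NB-ARC genes, of which 1 is among the 26 (Nitab4.5_0013183g0010). The late blight resistance protein R1 entry, named for a potato receptor against Phytophthora infestans, was described in 62 genes, of which 2 are members (Nitab4.5_0019677g0010 and Nitab4.5_0000338g0220). None of 4 genes with an RPW8 domain, the N-terminal domain of helper receptors, and none of 19 with a mannose-binding lectin entry reached a mean of 1. The other 23 members had none of these entries, and coiled-coil entries were not among those matched. Leucine-rich repeats were described in 4 of the 26 and in 38 of the 534, and an AAA+ ATPase domain in 3 of the 26 and in 18 of the 534. By their identifiers the 26 lie on 25 scaffolds, and 6 are the only gene in the table on theirs. No scaffold holds 3 members.

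**Figure D1:**
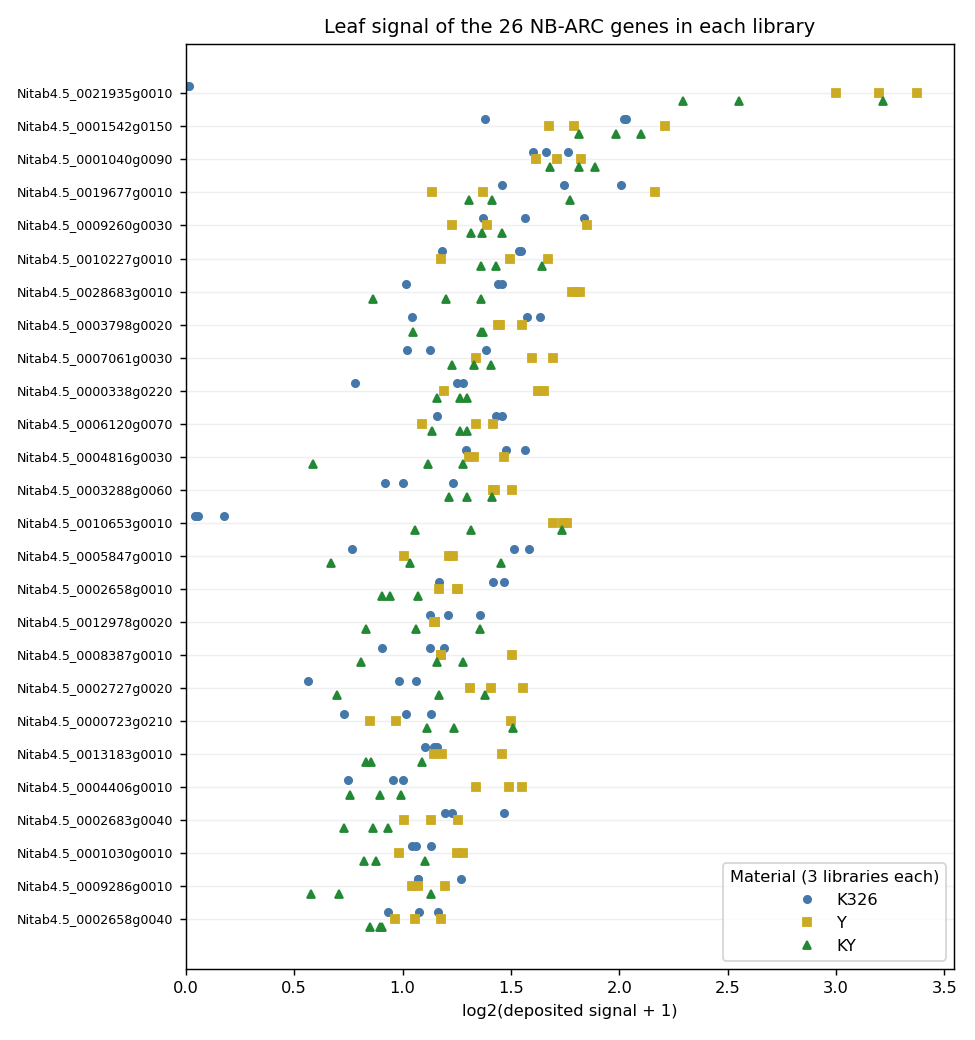
Signal of each of the 26 NB-ARC genes on the log2(signal + 1) scale in 9 libraries, with circles for K326, squares for Y and triangles for KY, 3 libraries each, ordered by mean. In Nitab4.5_0021935g0010 and Nitab4.5_0010653g0010 the K326 circles lie near 0 and apart from Y and KY; in the other 24 genes the K326 range overlaps that of the Y and KY libraries together.

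In Y leaves, 2 of the 26 receptor genes rose against K326, both from a signal near 0, and none fell. The first is Nitab4.5_0021935g0010, described as an NB-ARC disease resistance protein with an AAA+ ATPase domain. Its signal was 0.01 in K326 replicate 1 and was listed at 0 in K326 replicates 2 and 3. In Y it was 9.37, 8.19 and 7 in replicates 1 to 3, and in KY it was 3.91, 8.30 and 4.87. Every Y and KY library was therefore far above every K326 library, while the ranges of Y and KY overlapped. The mean was 8.19 ± 1.19 in Y and 5.69 ± 2.31 in KY (SD, n = 3). On the log2(signal + 1) scale the difference was 3.19 for Y minus K326 (SE 0.24, limma adjusted p = 0.000105) and 2.68 for KY minus K326 (SE 0.24, limma adjusted p = 0.000547). This scale understates changes from a low level and its size depends on the constant: the Y difference was 6.32 with a pseudocount of 0.1 and 1.39 with 5. Both calls held in all 20 alternatives, with limma adjusted p from 1.41e-05 to 0.00129 for Y and from 0.000128 to 0.0099 for KY.

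The second is Nitab4.5_0010653g0010, with the same domain entries. Its signal was 0.13, 0.04 and 0.03 in K326, 2.34, 2.38 and 2.24 in Y, and 1.08, 2.33 and 1.49 in KY. Again no Y or KY library came near the K326 range. The mean was 0.067 ± 0.055 in K326, 2.32 ± 0.07 in Y and 1.63 ± 0.64 in KY (SD, n = 3). The log2 difference was 1.64 for Y minus K326 (SE 0.21, limma adjusted p = 0.00323), a call that held in all 20 alternatives (limma adjusted p from 0.0018 to 0.0221). For KY minus K326 it was 1.28 (SE 0.21, limma adjusted p = 0.0295). In 11 of 20 alternatives this call did not hold, and dropping a single library was enough to lose it (limma adjusted p from 0.0531 to 0.121) unless that library was KY replicate 1. The groups did not overlap.

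Both genes had a like profile over Y and KY. KY replicate 1 was the lowest of the 6 Y and KY libraries in both genes, and KY replicate 2 was inside the Y range in both. The KY mean was 69.5% of the Y mean for Nitab4.5_0021935g0010 and 70.4% for Nitab4.5_0010653g0010. The signal of the first divided by that of the second stayed between 3.13 and 4.0 in all 6 libraries (Pearson r = 0.95, Spearman rho = 0.83, n = 6 libraries of 2 materials, which share their depth; given as a description). Each is the only gene in the table on its scaffold, so no neighbouring gene can be set beside them, and both are among the 3 members with an AAA+ entry. Neither differed between KY and Y by limma (log2 difference -0.50, SE 0.24, adjusted p = 0.414, and -0.36, SE 0.21, adjusted p = 0.519). If the genes are near-identical copies, their separate values depend on how reads were divided.

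**Figure D2:**
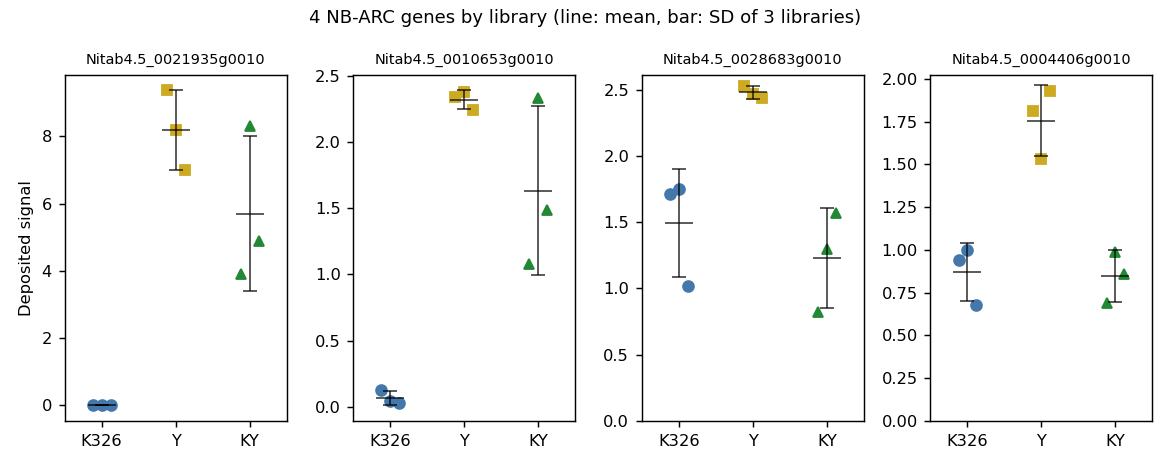
Deposited signal of 4 NB-ARC genes by library, with the mean as a line and the SD of 3 libraries as a bar. The vertical axes differ and all include 0. The first 2 genes are near 0 in K326 only. The other 2 are higher in the 3 Y libraries than in all K326 and KY libraries, without passing the test.

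Read against all genes, 2 of 26 members called higher (7.69%) stand beside 0.777% of the 16348 tested genes called higher in Y and 0.232% called higher in KY. The rule for members favours this direction: a gene near 0 in K326 passes a mean of 1 through 6 libraries, and a gene near 0 in Y and KY would have to pass it through 3. The share is therefore a description, and NB-ARC genes of the opposite pattern are taken up below. No member was called lower by limma in Y (1.21% of all tested genes) or in KY (0.557%). At an unadjusted p below 0.05, 6 members were higher and 0 lower in Y, where 4.32% and 8.18% of all tested genes were. In KY 2 were higher and 2 lower, beside 2.28% and 9.13%. Both comparisons use the same K326 libraries.

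The other 24 receptor genes were called in neither comparison. Their log2 differences for Y minus K326 ranged from -0.18 to 0.56 with a median of 0.05, and the smallest limma adjusted p was 0.217. For KY minus K326 they ranged from -0.45 to 0.33 with a median of -0.14 (smallest limma adjusted p = 0.389). Over all tested genes the medians were -0.08 and -0.14. The sign of these medians is not firm. Without K326 replicate 3 the Y median of the 24 became -0.04, and under quantile normalization the KY median became 0.04, where the medians of all tested genes were -0.10 and 0.01.

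**Figure D3:**
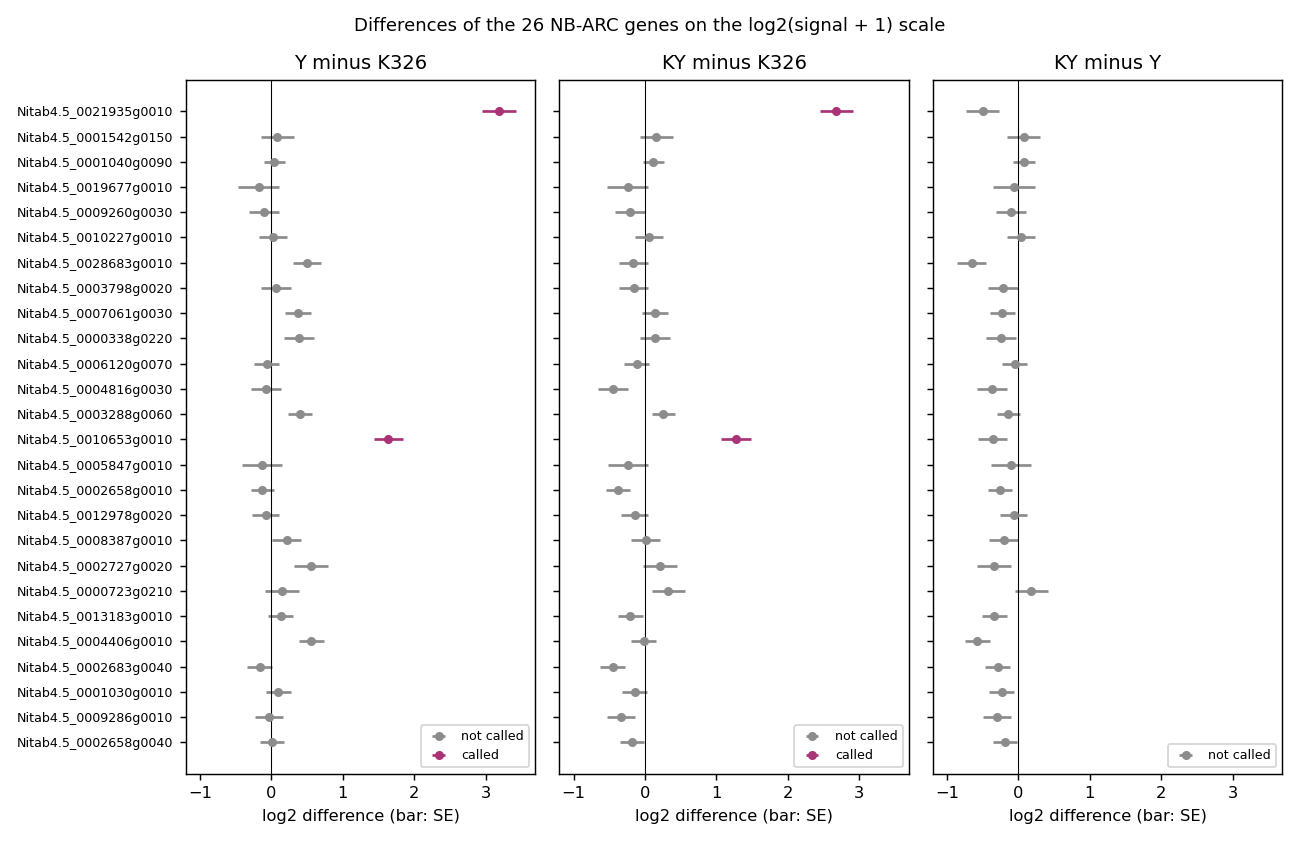
log2 differences of the 26 NB-ARC genes with their SE from the limma fit, in 1 panel per comparison. Called genes (adjusted p below 0.05) are coloured: the same 2 genes in the first 2 panels and none in the third, where 22 of 26 points lie below 0.

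Y held the highest mean in 13 of the 26 genes and the lowest in none, where it was highest in 31.8% and lowest in 36.8% of all tested genes. K326 was highest in 9 and lowest in 11 (47.3% and 19.6% of all tested genes), and KY was highest in 4 and lowest in 15 (20.8% and 43.7%). In 6 members, or 23.1%, every Y library was above every K326 library, where 7.41% of all tested genes showed this, and in 0 members every Y library was below (14.7% of all tested genes). Besides the called pair these were Nitab4.5_0028683g0010, Nitab4.5_0003288g0060, Nitab4.5_0002727g0020 and Nitab4.5_0004406g0010, named here for that separation, and none of the 4 passed the test. The rule for members favours the called pair, as given above, so the share of 23.1% is a description.

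Nitab4.5_0004406g0010 had a signal of 0.94, 1.00 and 0.68 in K326, 1.81, 1.53 and 1.93 in Y, and 0.69, 0.99 and 0.86 in KY. K326 and KY overlapped fully and Y stood above both, at a log2 difference of 0.56 against K326 (SE 0.17, limma adjusted p = 0.217). Its scaffold neighbour Nitab4.5_0004406g0020, also an NB-ARC gene, is below the mean of 1 and was not tested. Nitab4.5_0028683g0010 was at 1.71, 1.75 and 1.02 in K326, at 2.53, 2.47 and 2.44 in Y, and at 0.82, 1.30 and 1.57 in KY. Its Y libraries lay close together and above all others, with a log2 difference of 0.49 against K326 (SE 0.20, limma adjusted p = 0.351) and of -0.66 for KY minus Y (SE 0.20, limma adjusted p = 0.199). Nitab4.5_0003288g0060 had means of 1.08 ± 0.24 in K326, 1.73 ± 0.09 in Y and 1.48 ± 0.17 in KY (SD, n = 3; Y minus K326, limma adjusted p = 0.366). Nitab4.5_0002727g0020 was at 0.98, 1.09 and 0.48 in K326, at 1.94, 1.65 and 1.48 in Y and at 0.62, 1.6 and 1.25 in KY (Y minus K326, limma adjusted p = 0.376).

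Comparing KY with Y, 0 of the 26 genes were called by limma in either direction (0.483% of all tested genes were called higher and 0.814% lower), and at an unadjusted p below 0.05 there were 0 higher and 2 lower (4.24% and 8.96% of all tested genes). The differences leaned to 1 side: 22 of 26 were below 0, with a median of -0.22, where the median of all tested genes was -0.05. Above 0 were 15.4% of the members, beside 43.7% of all tested genes. In 9 members, or 34.6%, every KY library was below every Y library, against 11.2% of all tested genes, and in 0 members every KY library was above (5.39%). Of the 24 uncalled genes, 4 were above 0 under each of the 3 scalings tried, as in the fit without scaling. The lean was smaller without KY replicate 1 and K326 replicate 3, where 6 of the 24 were above 0. Their median was then -0.18, beside -0.12 for all tested genes, where it was -0.21 beside -0.05 with all libraries. K326 replicate 3 does not enter a difference between KY and Y. Leaving it out alone kept -0.21 beside -0.05 and 4 genes above 0, so the change came with KY replicate 1. Members of 1 set share libraries and are not independent, so the count carries no test.

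Against K326, 5 members had all KY libraries below all K326 libraries (19.2%, with 12.4% over all tested genes), and 2 had all above (7.69%, with 3.21%), the called pair. The rule for members favours that pair, as given above. Among the 5, Nitab4.5_0002683g0040 had a signal of 1.34, 1.77 and 1.29 in K326, 1.39, 1.19 and 1.01 in Y and 0.91, 0.66 and 0.82 in KY. It was lowest in KY, at a log2 difference of -0.45 against K326 (SE 0.18, limma adjusted p = 0.389). Nitab4.5_0004816g0030 was at 1.78, 1.45 and 1.96 in K326 and at 0.50, 1.43 and 1.17 in KY, so that KY replicate 1 alone gave the low end. The TIR gene Nitab4.5_0013183g0010 was at 1.23, 1.15 and 1.21 in K326, at 1.21, 1.27 and 1.75 in Y and at 1.13, 0.78 and 0.81 in KY. Its K326 values were close together, and its difference of -0.21 for KY minus K326 did not pass (SE 0.18, limma adjusted p = 0.683).

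The remaining 2 of these 5 genes share a scaffold. Nitab4.5_0002658g0010 was at 1.67, 1.77 and 1.25 in K326, 1.39, 1.38 and 1.25 in Y, and 0.92, 0.87 and 1.10 in KY. Nitab4.5_0002658g0040 was at 1.11, 1.24 and 0.91, then 1.26, 0.95 and 1.08, then 0.86, 0.87 and 0.80 in the same order. Both were lowest in KY, with log2 differences for KY minus K326 of -0.38 and -0.18 (limma adjusted p = 0.436 and 0.72). Their scaffold holds 5 more NB-ARC genes, all below a mean of 1 and none of them tested. Clustered receptor genes are often similar in sequence, and the values of single copies are uncertain for that reason.

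Among the genes with the highest means, 3 had materials with close means. Nitab4.5_0001040g0090 ranged from 2.04 to 2.70 over the 9 libraries, with means of 2.20 ± 0.18 in K326, 2.29 ± 0.24 in Y and 2.48 ± 0.25 in KY (SD, n = 3). Nitab4.5_0001542g0150 ranged from 1.6 to 3.63, with means of 2.58, 2.76 and 2.92. Nitab4.5_0010227g0010 had means of 1.70, 1.75 and 1.80. The libraries of the 3 materials overlapped in each of these genes. Of the remaining genes, Nitab4.5_0009260g0030 had means of 2.04, 1.86 and 1.61 in K326, Y and KY, Nitab4.5_0003798g0020 of 1.71, 1.79 and 1.41, and Nitab4.5_0007061g0030 of 1.27, 1.93 and 1.5. Every KY library of Nitab4.5_0003798g0020 lay below every Y library. The last 4, Nitab4.5_0006120g0070, Nitab4.5_0012978g0020, Nitab4.5_0000723g0210 and Nitab4.5_0009286g0010, ranged from 0.49 to 1.85 over all libraries, and their smallest limma adjusted p over the 3 comparisons was 0.555.

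The late blight R1 types varied widely between libraries of 1 material. Nitab4.5_0019677g0010 was at 2.35, 3.02 and 1.75 in K326, 1.59, 1.20 and 3.49 in Y, and 1.66, 1.47 and 2.42 in KY. Y replicate 3 was higher than every other library and Y replicate 2 lower. Nitab4.5_0000338g0220 was at 1.43, 1.38 and 0.72 in K326, 2.08, 1.28 and 2.14 in Y, and 1.23, 1.40 and 1.46 in KY, with overlapping groups. Of the leucine-rich repeat genes, Nitab4.5_0008387g0010 had means of 1.11, 1.45 and 1.14, Nitab4.5_0001030g0010 of 1.11, 1.26 and 0.92, and Nitab4.5_0005847g0010 of 1.52, 1.23 and 1.13 in K326, Y and KY. Nitab4.5_0005847g0010 showed how far 1 library can stand out, with 2.00 and 1.86 in K326 replicates 1 and 2 and 0.70 in replicate 3.

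K326 replicate 3 was low across the set. It was the lowest K326 library in 18 of the 24 uncalled members (75.0%), where it was the lowest in 40.6% of all tested genes. The summed signal of the 24 was 38.7, 39.0 and 27.9 in K326 replicates 1 to 3, 39.3, 36.0 and 43.3 in Y, and 29.8, 33.4 and 33.1 in KY. Every Y library was above every KY library, and K326 spanned both. The 508 NB-ARC genes below a mean of 1 summed to 99.4, 89.7 and 69.9 in K326, 86.3, 95.1 and 111 in Y and 81.8, 88.7 and 76.5 in KY. Here too K326 replicate 3 was the lowest and Y replicate 3 the highest library, although K326 replicate 3 had one of the larger total signals (591786).

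**Figure D4:**
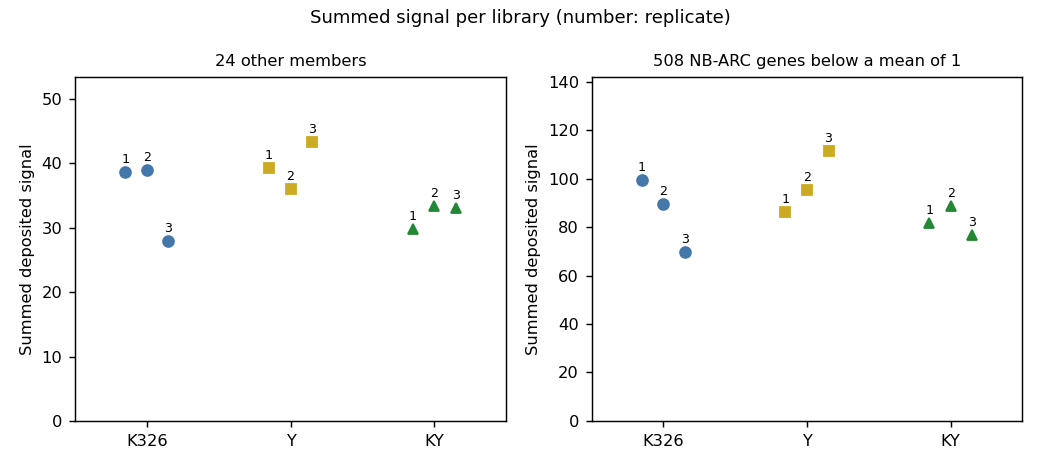
Summed deposited signal per library of the 24 uncalled NB-ARC members (left) and of the 508 NB-ARC genes below a mean of 1 (right), with the replicate number at each point and axes from 0. K326 replicate 3 is the lowest library in both panels, at 27.9 and 69.9.

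NB-ARC genes of the opposite pattern, on in K326 and near 0 elsewhere, lie below the mean of 1. When all 410 NB-ARC genes above 0 were fitted with no filter on low values, the same 2 members were called higher in Y and in KY and 2 further genes were called lower in both, or 0.976% of the NB-ARC genes tested in each comparison. Over all genes in that fit, 0.872% were called in Y and 0.365% in KY. Nitab4.5_0000733g0030, a leucine-rich repeat type, had a K326 signal of 0.68, 0.86 and 0.43 and a listed 0 in each of the 6 other libraries (log2 difference -0.72, SE 0.09, limma adjusted p = 0.00949 in Y and 0.0158 in KY). Nitab4.5_0001740g0130 was at 1.06, 2.23 and 1.15 in K326, at 0.11, 0.04 and 0.08 in Y and at 0.00, 0.05 and 0.15 in KY (log2 differences -1.17 and -1.19, limma adjusted p = 0.0264 and 0.0425). Both had no overlap between K326 and the other materials.

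Many neighbours of these genes had the same pattern. On the scaffold of Nitab4.5_0000733g0030, 15 other genes were above 0 in some library, and in 10 of the 15 every K326 library was above every Y and every KY library. Over the whole table this held for 1295 of 43785 genes above 0, or 2.96%. All 4 of its tested genes were called lower in Y and in KY, where 1.21% and 0.557% of all tested genes were. That count is a description, since these 4 genes passed the mean of 1 through their K326 signal. They include the ChlI-domain magnesium chelatase gene Nitab4.5_0000733g0210, which takes part in chlorophyll synthesis and had means of 31.9, 0.013 and 0.043 in K326, Y and KY, and the remorin gene Nitab4.5_0000733g0190, of a family of plasma membrane proteins, with means of 5.70, 0.053 and 0.027. On the scaffold of Nitab4.5_0001740g0130, 5 of 11 other genes above 0 had this pattern, among them a HIT-type zinc finger gene (Nitab4.5_0001740g0070; means of 8.53, 0 and 0.013). The other NB-ARC gene on that scaffold, Nitab4.5_0001740g0100, was at 0.79, 0 and 0 in K326, at 0.64, 0.32 and 0.92 in Y and at 0.31, 0 and 0.26 in KY, and so did not share it. Nor did Nitab4.5_0001740g0050, which has no domain description and was at 4.02 in KY replicate 1 and listed at 0 in the 8 other libraries. A listed 0 does not exclude transcripts, since depth is unknown.

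**Figure D5:**
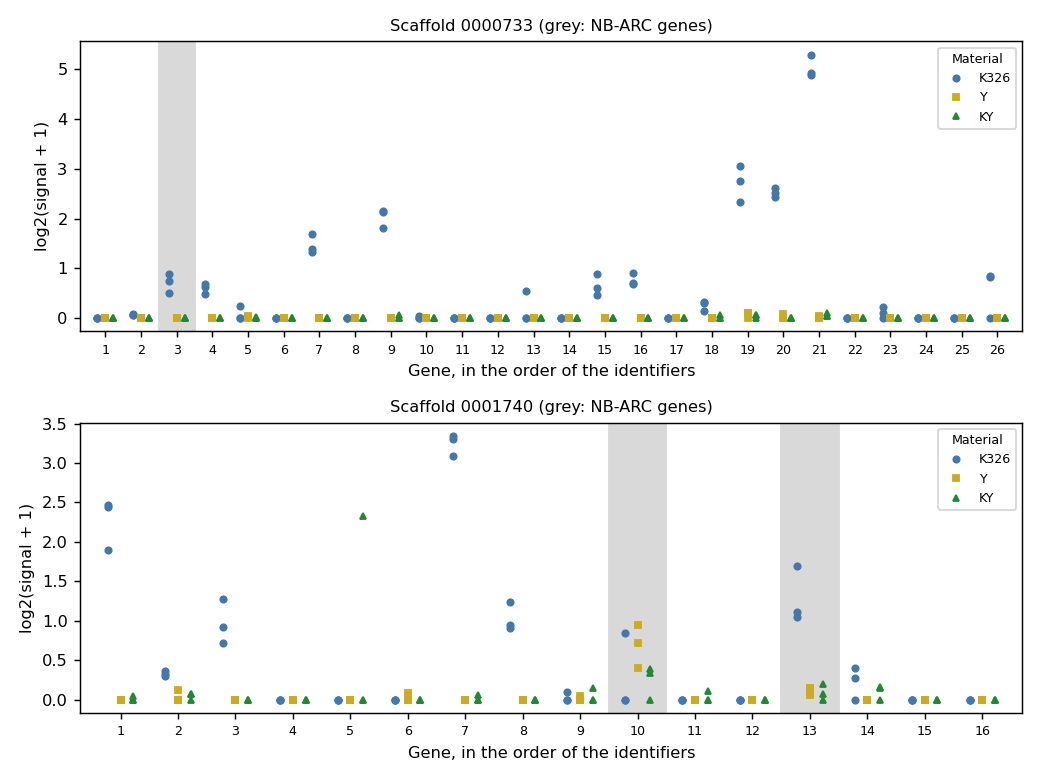
Signal on the log2(signal + 1) scale of every gene on the scaffolds that hold Nitab4.5_0000733g0030 and Nitab4.5_0001740g0130, in the order of their identifiers, with 9 libraries per gene and NB-ARC genes shaded. In 11 genes of the first scaffold and 6 of the second every K326 point stands above every Y and KY point; Nitab4.5_0001740g0100 and Nitab4.5_0001740g0050 (4.02 in KY replicate 1) are among those that do not share this.

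Gene families with members that act with these receptors were followed by 13 lists matched to the descriptions. Of the lists, 3 matched no gene (CHORD domain, RIN4 and NDR1). A match does not show a part in resistance, and 124 of the 197 tested genes are leucine-rich repeat protein kinases. Of 705 listed genes 197 were tested, with 1 called higher and 2 lower in Y, none in KY against K326, and 2 higher and 3 lower for KY minus Y. As shares of the 197 these were 0.508% and 1.02% for Y minus K326, beside 0.777% and 1.21% of all tested genes, and 1.02% and 1.52% for KY minus Y, beside 0.483% and 0.814%. For KY minus K326, 0.232% of all tested genes were called higher and 0.557% lower. At an unadjusted p below 0.05 the counts were 8 and 17 in Y (4.06% and 8.63%, beside 4.32% and 8.18% of all tested genes), 1 and 16 in KY (0.508% and 8.12%, beside 2.28% and 9.13%), and 5 and 14 for KY minus Y (2.54% and 7.11%, beside 4.24% and 8.96%). The medians of the 197 were -0.16, -0.19 and -0.03, where those of all tested genes were -0.08, -0.14 and -0.05. No list for a chaperone or a signalling hub held a called gene. At an unadjusted p below 0.05 in Y, 0 were higher and 0 lower of the 13 tested genes for Hsp90 and its activators. The 5 with an SGS or SGT1 entry had 0 and 0. The 20 class 3 lipases, a family that includes EDS1 and PAD4 and many other enzymes, had 0 and 3. The 17 MAP kinases had 1 and 0. The 7 genes described with NPR1, the name of a salicylic acid receptor, had 3 and 0. For KY minus K326 the same counts were 0 and 2, 0 and 0, 0 and 2, 1 and 0, and 0 and 0. The 4 tested calmodulin binding protein-like genes, a family with some members that regulate defence, also held no called gene (0 and 0 in both comparisons).

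The tested genes described with NPR1, which need not each be NPR1 itself, had a median log2 difference of 0.32 in Y and of 0.06 in KY against K326. The one with the largest Y difference of the 3 with the highest means, Nitab4.5_0014645g0010, was at 3.12, 3.29 and 2.22 in K326, 5.65, 4.20 and 5.17 in Y, and 2.93, 4.65 and 2.16 in KY. All Y libraries were above all K326 libraries, and the difference of 0.64 did not pass (limma adjusted p = 0.31). Of 18 respiratory burst NADPH oxidase genes, which make superoxide in defence, none reached a mean of 1. Of 34 Mlo genes, a family with members needed by powdery mildew fungi, 1 did.

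Caspase-domain genes, which include the metacaspases linked to hypersensitive cell death, had 6 tested genes, with 1 called in each direction in Y. Of all tested genes 0.777% were called higher and 1.21% lower in Y, and 0.483% and 0.814% for KY minus Y. The 2 are described as single genes, with no reading of the class. Nitab4.5_0006630g0010 fell, from 34.6, 37.4 and 26.4 in K326 to 7.91, 6.39 and 16.2 in Y, and was at 31.0, 32.0 and 35.9 in KY (Y minus K326 -1.68, SE 0.30, limma adjusted p = 0.0221). Nitab4.5_0017314g0010 rose, from 34.8, 33.6 and 25.8 in K326 to 56.1, 63.4 and 88.7 in Y, and was at 29.9, 31.8 and 34.7 in KY (1.10, SE 0.20, limma adjusted p = 0.0263). In each K326 and KY library the signals of both genes were nearly equal, differing by at most 5.29% of their sum. The sums overlapped, at 64.2 ± 10.5 in K326, 79.6 ± 22.1 in Y and 65.1 ± 5.02 in KY (SD, n = 3). They may be copies between which reads were divided, which was not tested. In 8 of 21 alternatives the fall was not called: dropping a single K326 library, Y replicate 1 or Y replicate 2 sufficed, with limma adjusted p between 0.0512 and 0.119. In 9 of 21 the rise was not called: here a single K326 library, Y replicate 2, Y replicate 3 or KY replicate 3 sufficed, with limma adjusted p between 0.053 and 0.107. For KY minus Y both were called as well (1.70 and -1.06, limma adjusted p = 0.0272 and 0.0434), and these calls were lost in 11 and 17 of 21 alternatives. Dropping a single library lost the first unless it was K326 replicate 3 or Y replicate 3 (limma adjusted p between 0.0506 and 0.135), and lost the second whichever library it was (limma adjusted p between 0.0507 and 0.128).

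Leucine-rich repeat protein kinases, the class that holds many cell-surface immune receptors, had 124 tested genes with 1 called lower in Y. This is not above the 1.21% of all tested genes called lower. Nitab4.5_0012487g0030 was at 11.0, 10.8 and 12.4 in K326 and at 12.2, 10.2 and 11.5 in KY, and was at 0.01, 0 and 0.01 in Y (Y minus K326 -3.62, SE 0.14, limma adjusted p = 1.97e-06). K326 and KY overlapped and Y alone was near 0, unlike the called NB-ARC pair, where K326 alone was. The call held in all 21 alternatives. For KY minus Y this gene was called higher and 2 kinase genes lower, where 0.483% and 0.814% of all tested genes were. Nitab4.5_0000037g0020 had means of 4.90 in Y and 1.83 in KY (limma adjusted p = 0.0114). Its call was lost in 5 of 20 alternatives: when KY replicate 3, Y replicate 1 or Y replicate 2 was left out, with only Y and KY in the fit, and with a replicate block (limma adjusted p between 0.0551 and 0.0671). Nitab4.5_0004379g0030 had means of 6.90 and 2.64 (limma adjusted p = 0.0368). Its call was lost in 11 of 20 alternatives: with no filter on low values, with only Y and KY in the fit, with a replicate block, and without any single library other than KY replicate 1 (limma adjusted p between 0.0691 and 0.153).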

How the data were processed

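Per the labels' protocols, leaf RNA from a TRIzol extraction went through DNase I into TruSeq libraries for paired-end sequencing. Per the submitters' processing notes the tools were HISAT2, StringTie and RSEM; the sources used here give no versions, settings or genome build. Deposited by the authors was a non-negative expression signal per gene and library, with no unit named in the file headers, and material means, which were not used. Values were taken as log2(signal + 1). The 16348 genes whose mean over 9 libraries was 1 or more were fitted together with limma 3.58.1 in R 4.3.3 (1 mean per material, empirical Bayes with a mean-variance trend, Benjamini-Hochberg adjustment over all of them), with calls at an adjusted p below 0.05. The fit was tested on simulated data. A reference table of tobacco genes shared 0 identifiers with the deposited table, so names are the deposited descriptions and no coordinates or sequences are given. Scaffolds were read from the identifiers. Members, lists and tests were chosen with earlier results of these data known.

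Named are all called members, the 10 with the highest mean, the top 2 of each domain class, the 3 genes on either side of the mean of 1, and of each signalling list at most 3 genes that were called or had the highest mean; other names were chosen after their values were seen. Alternatives changed the pseudocount, filter, scaling, samples, block and spread model, or left out libraries.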

Additional observations from a re-analysis of the deposited data

How the results depend on the processing

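For Y minus K326 the count of 2 called NB-ARC genes was 4 with no filter on low values, where all NB-ARC genes above 0 were counted, 3 with the added filter given below, and 2 in the other alternatives. For KY minus K326 the count of 2 became 4 with no filter, and 1 with a pseudocount of 5, with only the 2 materials compared or with a replicate block; leaving out 1 library at a time gave 1 to 2. For KY minus Y it was 0 in all alternatives. The replicate numbers did not pair the libraries: deviations of same-numbered libraries correlated at -0.17 to 0.18, and 2 of 9 such pairs were over 0.1. A filter on a mean of at least 1 in any material, chosen after seeing the data, tested 45 NB-ARC genes and called 2 higher and 1 lower in Y (Nitab4.5_0001740g0130, limma adjusted p = 0.0355) and 2 higher and 0 lower in KY. With a mean of at least 5 no member was left to test. Scaling moved the median over all genes for KY minus K326 from -0.14 to 0.00 with median-of-ratios and to 0.01 with quantile normalization. The split of all called genes in that comparison was 38 higher and 91 lower, and became 49 and 73 or 51 and 73. For Y minus K326 it was 127 and 198, and became 146 and 172 or 153 and 174. The number of called genes in Y minus K326 fell from 325 to 195 without K326 replicate 3. No gene that is named as called changed direction. Read depth is unknown, and signals near 1 limit what can be resolved for most members.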
